A study of Mus musculus with 141 samples.

Results

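Claudins and their junction partners were read in sorted mouse lung epithelial cells. The set held 10 genes, and 9 of the 17136 genes in the count file were rows of it: the claudins *Cldn18*, *Cldn3*, *Cldn7*, *Cldn4* and *Cldn10*, the other membrane proteins *Ocln* and *F11r*, and the scaffold proteins *Tjp1* and *Inadl*. *Cldn1* was not analysed here. The genes were listed by name. The cells came from 1 male *ACID;R26tdTomato* mouse of the 129SV strain, aged 4 months. In this line Cre is driven from the *Aqp5* locus (a *Cre-IRES-DsRed* cassette in its first exon), and cells in which it has acted, with their progeny, carry the red protein tdTomato from the *ROSA26* locus. Digested lung was sorted for CD31- CD45- E-cadherin+ tdTomato+ cells, which were captured 1 per site on a Fluidigm C1 chip. Every cell was therefore selected for E-cadherin protein and for *Aqp5* promoter activity at some time in its lineage, and no second animal was analysed here.

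Of the deposited cells, 92 (65.2%) had a mitochondrial share of counted reads under 0.15 and were kept, and the other 49 were left out. The labels call all of them alveolar type 1 cells, and the counts did not bear this out for every cell. With counts scaled to 1000000 counted reads per cell (CPM), at least 5000 CPM of *Ager*, the receptor that marks type 1 cells, were found in 45 cells (48.9%), and at least 8000 CPM of *Sftpc*, surfactant protein C of type 2 cells, in 11 cells (11.96%). These are called type 1 and type 2 cells below, and the 36 others (39.1%) the remaining cells. No cell passed both minima. The cells next to the *Ager* minimum had 1402 and 9335 CPM, and those next to the *Sftpc* minimum 7774 and 25437 CPM. Other listed type 1 genes were highest in the type 1 cells for 14 of 14. Other type 2 genes were highest in the type 2 cells for 12 of 12. The lists were chosen with earlier results of these data known, so this is no independent check of the names. Among the remaining cells, marker lists separated 12 ciliated-like, 12 club-like and 8 basal-like cells, 2 fibroblast-like cells and 2 cells that were left unassigned. Of the 36 cells, 4 lay near the minimum score of this split and 4 near its minimum lead. The endothelial list summed to 0.476 CPM in type 1 and 0.309 CPM in type 2 cells, and *Ptprc*, which encodes CD45, had no read in any class.

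Tight junctions seal the space between neighbouring epithelial cells near their apical border. Claudins are the membrane-spanning proteins that form the strands and set which ions and molecules pass, so a claudin mix is a description of a barrier. Occludin (*Ocln*) and the junctional adhesion molecule JAM-A (*F11r*) are further membrane proteins of the junction. ZO-1 (*Tjp1*) and PATJ (*Inadl*) lie beneath the membrane and tie it to the actin cytoskeleton and to the polarity proteins. In the alveolus, the junctions between type 1 and type 2 cells keep the air space from flooding, and claudins 3, 4 and 18 are the ones best known there.

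The claudin genes lie on separate chromosomes except for *Cldn3* and *Cldn4*. On mouse build GRCm38, with the GENCODE vM21 gene models, *Cldn18* spans chr9:99689461-99717267 on the minus strand with 4456 exonic bases. *Cldn7* spans chr11:69964779-69967885 (plus strand, 1948 exonic bases) and *Cldn10* chr14:118787908-118875489 (plus strand, 2591 exonic bases). *Cldn3* (chr5:134986214-134987472, plus strand, 1259 exonic bases) and *Cldn4* (chr5:134945119-134946934, minus strand, 1816 exonic bases) are transcribed away from each other, with starts 39280 bases apart. The 250 bases before the transcript starts, from RefSeq on GRCm38.p6, are shown for the claudins that led the mix of some class, so that the sequence next to each start can be read beside its level. *Cldn18* has a distal and a proximal start, listed as start 1 and start 2, which give a different first exon, and gene-level counts do not tell their transcripts apart. Capitals mark matches to the motifs searched.
Cldn18, start 1, chr9:99717268-99717517, minus strand: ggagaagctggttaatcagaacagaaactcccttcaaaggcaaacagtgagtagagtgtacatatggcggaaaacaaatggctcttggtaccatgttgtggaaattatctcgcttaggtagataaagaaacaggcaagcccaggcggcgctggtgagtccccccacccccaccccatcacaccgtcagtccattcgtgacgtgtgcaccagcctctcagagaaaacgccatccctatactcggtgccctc
Cldn18, start 2, chr9:99710064-99710313, minus strand: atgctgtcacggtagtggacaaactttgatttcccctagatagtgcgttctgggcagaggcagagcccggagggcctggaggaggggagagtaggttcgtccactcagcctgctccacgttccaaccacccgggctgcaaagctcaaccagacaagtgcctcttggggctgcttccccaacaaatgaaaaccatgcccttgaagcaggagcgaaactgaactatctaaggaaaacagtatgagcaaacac
Cldn3, chr5:134985964-134986213, plus strand: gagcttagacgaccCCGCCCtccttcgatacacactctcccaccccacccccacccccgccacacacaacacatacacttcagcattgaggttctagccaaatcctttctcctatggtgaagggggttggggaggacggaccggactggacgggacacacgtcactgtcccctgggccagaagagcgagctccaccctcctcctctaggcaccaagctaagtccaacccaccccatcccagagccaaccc
Cldn7, start 1, chr11:69964529-69964778, plus strand: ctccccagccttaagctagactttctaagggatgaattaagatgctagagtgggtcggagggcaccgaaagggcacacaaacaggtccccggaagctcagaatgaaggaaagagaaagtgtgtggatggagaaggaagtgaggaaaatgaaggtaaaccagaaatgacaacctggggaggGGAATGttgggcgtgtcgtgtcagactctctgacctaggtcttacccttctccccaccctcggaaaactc
Cldn10, start 2, chr14:118854700-118854949, plus strand: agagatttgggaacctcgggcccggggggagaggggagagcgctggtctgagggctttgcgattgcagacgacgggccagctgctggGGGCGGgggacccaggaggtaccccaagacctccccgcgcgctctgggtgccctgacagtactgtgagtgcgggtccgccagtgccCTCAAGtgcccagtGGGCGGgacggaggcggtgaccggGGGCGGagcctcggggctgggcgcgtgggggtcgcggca

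The letters searched, on both strands, were the NKX2-1 core CTCAAG (in 13.3% of 32851 promoters of this length), the TEAD core GGAATG (12.6%), the forkhead core GTAAACA (3.17%), the Grainyhead-like core ACCGGTT (0.831%), the TATA box TATAAA (12.4%) and the GC box GGGCGG (32.7%). Neither *Cldn18* window held any of them. The *Cldn3* window held a GC box, and the window of *Cldn7* start 1 a TEAD core beginning 70 bases before the start. The window of *Cldn7* start 2, not shown, had no TEAD core but a GC box beginning 6 bases before the start. The window of *Cldn10* start 1, also not shown, held none of the motifs. The second *Cldn10* start had an NKX2-1 core beginning 77 bases before it and 3 GC boxes, none of them overlapping it. NKX2-1 cores were also in the windows of *Ocln* (start 1) and *F11r* (beginning 149 bases before). A match of letters is a description of the sequence and was not tied to the levels below.

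A kept cell held 142003 or more counted reads, and the classes had medians of 468718 (type 1), 413806 (type 2) and 693389 reads (remaining cells). Levels were taken from the reads of a class summed over its cells, 23130868, 6477051 and 27047343 reads in the same order, and are given in CPM with a 95% exact Poisson interval. Reads were amplified by PCR and no molecular identifiers are described, so the intervals here and below cover counting error only. All cells are from 1 mouse, so no p-value was computed, and the spread that can be shown is that between cells.

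*Cldn18*, the claudin best known from lung and stomach, was the most abundant claudin of the type 1 cells, at 593 CPM per kilobase of exon against 55.1 for *Cldn7*, and was read in every one. Its level was 2644 CPM (2623 to 2665) in the 45 type 1 cells, 652.8 CPM (633 to 673) in the 11 type 2 cells and 70.9 CPM (67.8 to 74.2) in the remaining cells. Single type 1 cells ran from 55.8 to 8049 CPM with a median of 2649 CPM. Single type 2 cells ran from 15.7 to 1428 CPM with a median of 515 CPM. The 2 classes overlapped, and 35 of the 45 type 1 cells lay above the highest type 2 cell. The log2 ratio of type 1 over type 2 was 2.02 (1.97 to 2.06). Against the remaining cells it was 5.22 (5.15 to 5.29). The type 1 cell with the least *Cldn18*, at 55.8 CPM, had 32052 CPM of *Ager* and 603 CPM of *F11r*, and the next lowest had 290.5 CPM of *Cldn18*. The type 2 cell with the least *Cldn18* also had the least *Sftpc* of its class (25437 CPM), and it had no read of *Cldn3*.

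In the remaining cells *Cldn18* was found in the ciliated-like cells and in the 2 unassigned cells (39.2 and 284 CPM). Ciliated-like cells had 238 CPM (227 to 250.5), against 3.13 CPM in club-like and 1.48 CPM in basal-like cells. At or above 20 CPM, the level used here to call a gene present in a cell, *Cldn18* was present in 7 of 12 ciliated-like, 0 of 12 club-like and 0 of 8 basal-like cells. A count of 0 allows up to 26.5% of club-like and 36.9% of basal-like cells. The 3 ciliated-like cells with the most *Cldn18* had 1149, 1012 and 695 CPM. Their *Ager* levels were 9.64, 21.6 and 5.70 CPM. Their summed type 1 marker lists were 2675, 999 and 363 CPM, and the lowest type 1 cell had 14985 CPM. The highest list sum of a ciliated-like cell, 3803 CPM, was in a cell with 14.1 CPM of *Cldn18*. The 3 cells with the most *Cldn18* were the only ciliated-like cells with a read of *Ocln*. How far RNA from other cells entered these values was not tested.

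*Cldn3*, a sealing claudin with a short single-exon gene, was nearly missing from the type 1 cells. It had 30 reads in all type 1 cells together, 1.30 CPM (0.875 to 1.85), and no type 1 cell reached 20 CPM. Type 2 cells had 305 CPM (292 to 319) and the remaining cells 177 CPM (172 to 182). The log2 ratio of type 1 over type 2 was -7.88 (-8.45 to -7.36) and of type 1 over the remaining cells -7.09 (-7.66 to -6.58). The type 2 cells were uneven: their *Cldn3* was 1347, 643, 448, 371, 306, 27.6, 22.98, 6.07 and 5.79 CPM and 0 in the other 2 cells. A single cell gave 48.6% of these reads, and without it the class stood at 176 CPM. Of the 11 type 2 cells, 7 had *Cldn3* at 20 CPM or more, and all 7 also had *Cldn18*. Ciliated-like cells had the highest *Cldn3* of any group, 560.5 CPM (543 to 579), with cells from 1.66 to 4500 CPM and 9 of 12 at 20 CPM or more. Club-like cells had 73.7 CPM (68.6 to 79.1), with 6 of 12 cells present, and basal-like cells 2 reads. An antisense gene, *Wbscr25*, overlaps *Cldn3* and whether counting used strand is not given in the sources used here. *Wbscr25* had 0, 4 and 6 reads in the 3 classes, and reads that lie on both genes cannot be told apart.

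*Cldn7*, a claudin also found along the lateral membrane, was present in some cells of all 3 classes. Its level was 107.4 CPM (103.2 to 111.7) in type 1, 21.8 CPM (18.3 to 25.7) in type 2 and 219 CPM (214 to 225) in the remaining cells. Among type 1 cells it was either clearly present or nearly missing. It was at 51.3 to 1052 CPM in 15 of 45 cells, and under 20 CPM in the other 30, of which 18 had no read. The highest type 1 cell gave 17.5% of the reads. In ciliated-like cells *Cldn7* was present in 12 of 12 at 657 CPM (637 to 677), with single cells from 21.1 to 2168 CPM. A single cell gave 43.1% of those reads, and the level without it was 430.1 CPM. Club-like cells had 146 CPM (138.3 to 153) with 8 of 12 cells present, and basal-like cells 3.46 CPM with 1 of 8. The log2 ratio of type 1 over type 2 was 2.30 (2.06 to 2.56), while that of type 1 over the remaining cells, -1.03 (-1.10 to -0.96), fell under 2-fold in 6 of the alternative settings. It was -0.32 with all deposited cells, -0.45 in chip columns 1 to 10 and -0.76 without the top cells.

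*Cldn10*, which makes an ion-selective pore, was found mainly in the club-like cells. Club-like cells had 288 CPM (278 to 299), with a median cell of 237 CPM and a highest of 759 CPM. It was present in 9 of 12 club-like cells, and outside them in 1 fibroblast-like cell (324 CPM) and 1 unassigned cell (459 CPM). The 3 club-like cells without a read of it had 91.4, 12.5 and 241 CPM of *Cldn3*, the second of these under 20 CPM. *Cldn3* was not confined to them, since 4 club-like cells had both *Cldn3* and *Cldn10* at 20 CPM or more. In the 3 cells *Scgb1a1*, the club cell secretoglobin, was 174821, 418420 and 402564 CPM, within the range of the class. Of the 8 basal-like cells, 2 had *Cldn10*, at 379 and 256 CPM, and the ciliated-like cells had 1 read in all. Type 1 cells had 14 reads (0.605 CPM) and type 2 cells 2 reads (0.309 CPM). The log2 ratio of type 1 over the remaining cells was -8.03 (-8.90 to -7.28).

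*Cldn4*, a claudin of airway and injured alveolar epithelium, was the rarest. It had no read in the 45 type 1 and the 11 type 2 cells. A count of 0 cells at 20 CPM allows shares of up to 7.87% and 28.5%. The 240 reads in the remaining cells came from 5 cells, of which 4 reached 20 CPM: 2 club-like cells at 54.9 and 118.9 CPM, a ciliated-like cell at 53.01 CPM and an unassigned cell at 37.3 CPM. With 3 reads set in place of 0, *Cldn4* was 68.4-fold lower in type 1 and 19.2-fold lower in type 2 than in the remaining cells. These folds depend on that choice and are not lower bounds. The intervals of the log2 ratios reached up to -5.79 for type 1 and -3.95 for type 2, which are smaller differences. A single club-like cell gave 40% of the 240 reads. The remaining cells stood at 5.49 CPM without it, so both folds would be smaller.

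**Figure D1:**
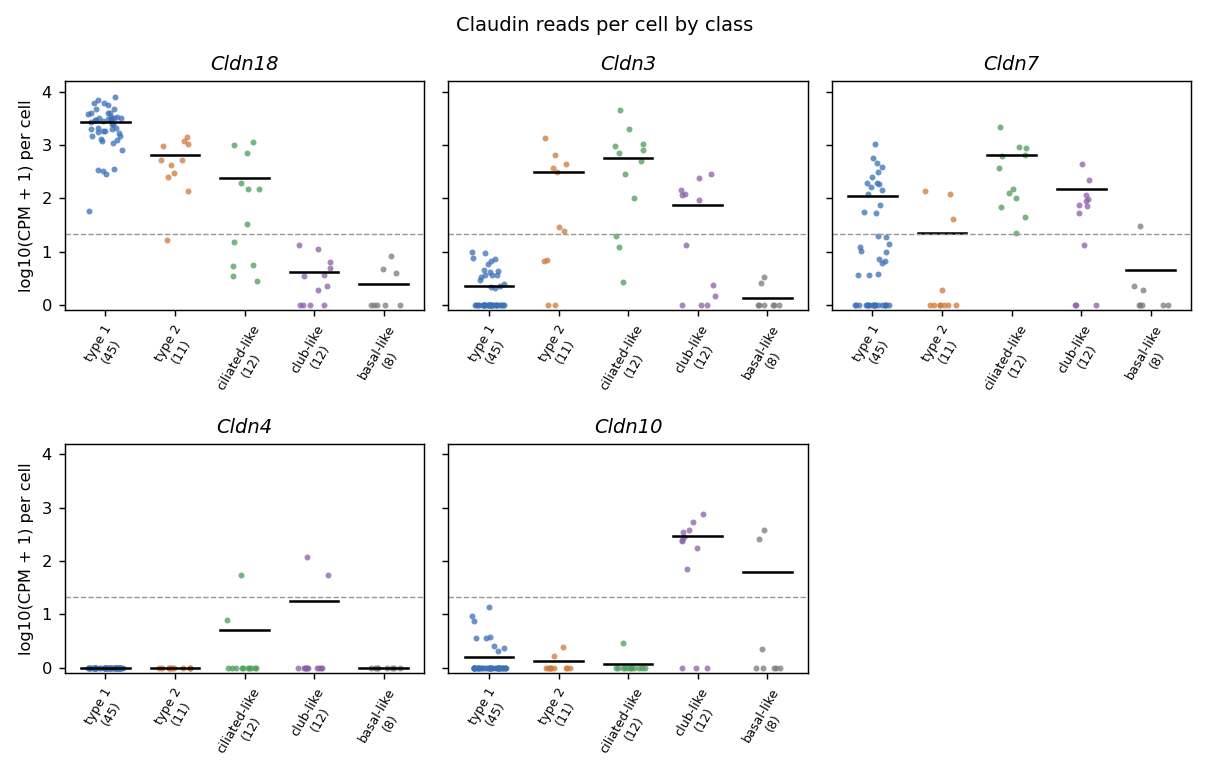
Level of each claudin in single cells, as log10(CPM + 1), for 45 type 1, 11 type 2, 12 ciliated-like, 12 club-like and 8 basal-like cells. Each point is 1 cell, the black bar is the CPM of the reads summed over the group and the dashed line marks 20 CPM. *Cldn18* is above the line in all 45 type 1 cells, *Cldn3* in none of them, and *Cldn10* in 9 of 12 club-like cells.

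The claudin mix of a class is the share of each claudin among the reads of the 5 claudins, each divided by its exonic length in kilobases. In type 1 cells *Cldn18* made up 91.3% of this sum (90.997 to 91.6, exact binomial interval) and *Cldn7* 8.49%. *Cldn3* added 0.1585% and *Cldn10* 0.03595%. The median type 1 cell was at 98.9% *Cldn18*, and single cells ran from 12.9% to 100%. This was a mix of 1 leading claudin.

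The type 2 mix had 2 claudins. *Cldn3* made up 60.6% (59.3 to 61.8), *Cldn18* 36.6% (35.4 to 37.8) and *Cldn7* 2.79% of the length-scaled sum. Which of the first 2 led depended on the scaling, and it differed between the summed reads and the median cell. By reads not divided by length, *Cldn18* held 66.6% and *Cldn3* 31.1%. The methods describe libraries whose cells were tagged with barcodes on the chip, and a short first read paired with a longer second. Which part of a transcript the counted reads cover, which bears on the scaling to prefer, was not tested. In the 10 type 2 cells with a claudin at 20 CPM or more, the length-scaled *Cldn18* share per cell ran from 9.32% to 100%. Its median was 52.6%, against a median of 36.6% for *Cldn3*. Leaving out the cell with the most *Cldn18* reads gave a summed *Cldn18* share of 33.5%. A different cell gave 48.6% of the *Cldn3* reads, and the mix without that cell was not computed.

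The remaining cells had a wider mix. *Cldn3* made up 41.99%, *Cldn7* 33.6%, *Cldn10* 18.2%, *Cldn18* 4.75% and *Cldn4* 1.46% per kilobase. It split by cell group. Ciliated-like cells had 53.1% *Cldn3*, 40.2% *Cldn7* and 6.38% *Cldn18*, and this order too turned with the scaling, since by reads alone *Cldn7* held 44.98% and *Cldn3* 38.4%. Club-like cells had 43.7% *Cldn10*, 29.4% *Cldn7*, 23.01% *Cldn3* and 3.61% *Cldn4*, and *Cldn10* also led by reads alone (54.7%). Basal-like cells had 90.8% *Cldn10*, but on only 398 claudin reads. The sum of the 5 claudins, not divided by length, differed as well. It was 2753 in type 1, 1460 in ciliated-like, 980 in type 2, 527 in club-like and 65.6 CPM in basal-like cells. In single cells these sums overlapped widely, with type 1 cells from 75.4 to 8049 CPM, ciliated-like cells from 231 to 4535 CPM and type 2 cells from 15.7 to 2525 CPM. Divided by exonic length, the sum was larger in ciliated-like than in type 1 cells. Ciliated-like cells had 445 CPM per kilobase of *Cldn3* and 337 of *Cldn7*, type 1 cells 593 of *Cldn18* and 55.1 of *Cldn7*.

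**Figure D2:**
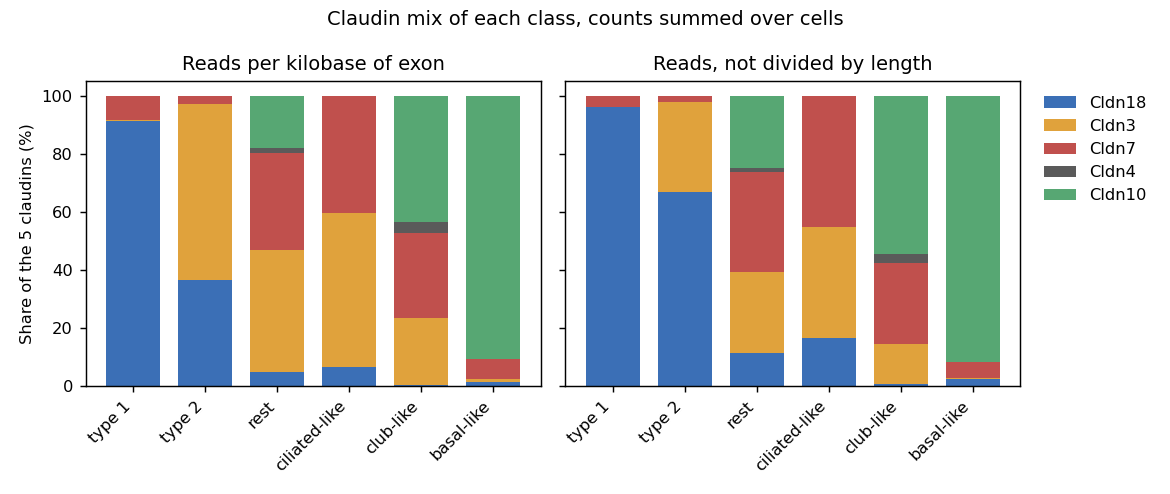
Share of each claudin in the claudin reads of 3 classes and 3 groups of the remaining cells, in percent, as stacked bars. The left panel divides reads by exonic length and the right panel does not. *Cldn18* fills 91.3% of the type 1 bar on the left, and the leading claudin of the type 2 and ciliated-like bars changes between the panels.

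Single cells combined claudins in a few ways. At 20 CPM, 30 type 1 cells had *Cldn18* alone and 15 had *Cldn18* with *Cldn7*, and no other combination occurred in this class. At 10 CPM the same cells split into 25, 19 and 1 (*Cldn18* with *Cldn10*), and at 50 CPM into 30 and 15 again. Of the type 2 cells, 6 had *Cldn18* with *Cldn3*, 1 had *Cldn18*, *Cldn3* and *Cldn7*, 2 had *Cldn18* with *Cldn7*, 1 had *Cldn18* alone and 1 had none. Ciliated-like cells had *Cldn3* with *Cldn7* in 4 cells, the same pair with *Cldn18* in 4 more and with both *Cldn18* and *Cldn4* in 1 cell. Of the other 3, 2 had *Cldn18* with *Cldn7* and 1 had *Cldn7* alone. Club-like cells were the most varied, with 8 different combinations and 1 cell without a claudin among 12. Their most frequent combination was *Cldn7* with *Cldn10*, in 3 cells. Of the 8 basal-like cells, 5 had none of the 5 claudins at this level, 2 had *Cldn10* and 1 had *Cldn7*. A gene of few transcripts can be missed in a single cell, so these are combinations detected, and a missing claudin is one not detected at this depth.

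**Figure D3:**
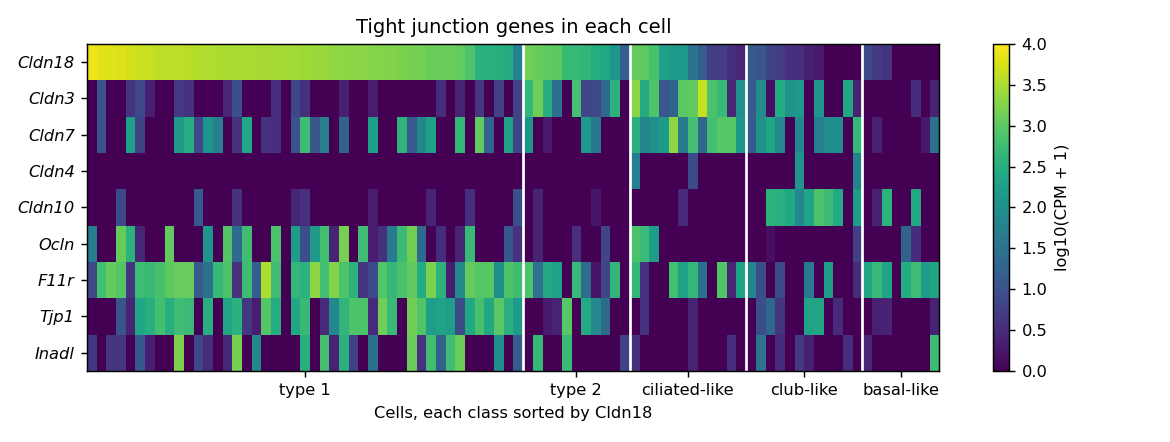
Level of the 9 genes (rows) in single cells (columns) of 5 groups, as log10(CPM + 1) by colour. The *Cldn18* row is filled across the type 1 cells, *Cldn3* and *Cldn7* appear mainly in the ciliated-like block and *Cldn10* mainly in the club-like block, and they are patchy within them.

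The other membrane proteins were highest in type 1 cells as summed levels. *Ocln* had 259 CPM (252 to 265) in type 1, 0.463 CPM (3 reads) in type 2 and 23.995 CPM (22.2 to 25.9) in the remaining cells. It was present in 19 of 45 type 1 cells, at 22.2 to 1491 CPM, and in 0 of 11 type 2 cells. That count of 0 allows up to 28.5%. The median type 1 cell had 2.64 CPM, within the range of the type 2 cells (0 to 5.75 CPM). Of the reads in the remaining cells, 46.2% came from 1 cell. The log2 ratio of type 1 over type 2 was 9.13, with a wide interval (7.58 to 11.40) because of the 3 reads. *F11r* was the most evenly spread partner. Its level was 607 CPM (597 to 617) in type 1, 179 CPM (168 to 189) in type 2 and 145 CPM (140.9 to 150) in the remaining cells, and it was present in 36 of 45, 7 of 11 and 18 of 36 cells. Type 1 cells ran from 0 to 3229 CPM and type 2 cells from 0 to 734 CPM, so the classes overlapped. Within the remaining cells, basal-like cells had *F11r* in 7 of 8 (240.5 CPM), ciliated-like cells in 7 of 12 (248 CPM) and club-like cells in 3 of 12 (11.4 CPM). The basal-like cells thus had *F11r* beside few claudin reads.

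*Tjp1*, the scaffold that binds the tails of claudins, had 305 CPM (298 to 313) in type 1 cells, 86.5 CPM (79.5 to 93.9) in type 2 cells and 25.4 CPM (23.5 to 27.3) in the remaining cells. It was present in 30 of 45 type 1 cells, at 71.5 to 1350 CPM, against 4 of 11 type 2 and 5 of 36 remaining cells. The type 2 level rested on 1 cell at 914 CPM with 61.8% of the reads, and was 35.1 CPM without it. Ciliated-like cells had 2 reads of *Tjp1* in all and 0 of 12 cells present. Their claudin sum, not divided by length, was still the second highest. *Inadl*, named *Patj* in current annotation, had 190.2 CPM (185 to 196) in type 1, 84.6 CPM (77.7 to 91.996) in type 2 and 14.8 CPM (13.4 to 16.4) in the remaining cells. Only 12 of 45 type 1 cells had it at 20 CPM or more, with a median of 603 CPM among those. The type 2 value was made by 2 cells at 482 and 536 CPM, both in chip columns 1 to 10, and the type 1 over type 2 log2 ratio of 1.17 was -0.10 within those columns. In the remaining cells 1 basal-like cell at 544 CPM gave 88.5% of the reads. *Ocln*, *F11r*, *Tjp1* and *Inadl* counted together, type 1 cells had 0 to 4 of them present, with 20 of 45 cells at 2 and 16 at 3 or 4. No type 2 or remaining cell had more than 2.

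**Figure D4:**
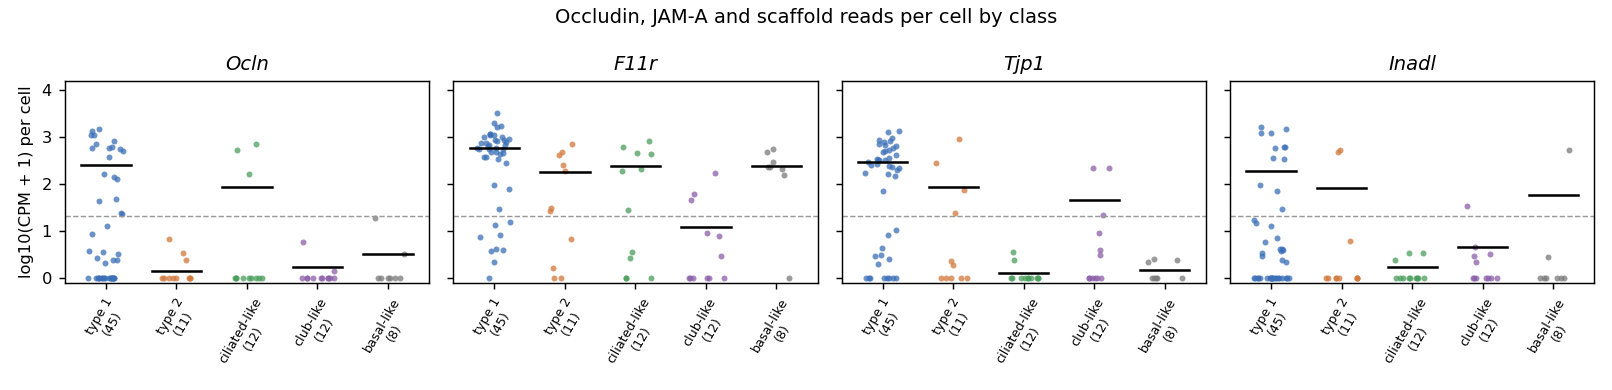
Level of *Ocln*, *F11r*, *Tjp1* and *Inadl* in single cells, as log10(CPM + 1), for the same 5 groups. Points are cells, black bars are the CPM of summed reads and the dashed line marks 20 CPM. *F11r* is above the line in 36 of 45 type 1 cells, *Tjp1* in 30, *Ocln* in 19 and *Inadl* in 12, and no type 2 cell is above it for *Ocln*.

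Counted together at 2-fold or more, among genes with at least 10 CPM in 1 of the compared classes, 6 of 7 members were higher in type 1 than in type 2 cells and 1, *Cldn3*, was lower. The count of higher members was 4 in chip columns 1 to 10, where *Tjp1* stood at a log2 ratio of 0.85, and 5 in 5 of the other settings. The background was 51.4% of 8796 genes higher and 24.3% lower. The median log2 ratio of type 1 over type 2 was 1.82 over the members and 1.13 over all genes, so the count is read against a general excess in type 1 cells. Against the remaining cells, 5 of 8 members were higher in type 1 (background 33.4%) and 3 were lower (background 34.8%), the latter being *Cldn3*, *Cldn7* and *Cldn10*. The median log2 ratio was 2.75, against 0.00 over all genes. In type 2 against the remaining cells 3 of 8 members were higher (background 21.7%) and 3 lower (background 51%), with a median log2 ratio of 0.54 against -1.10. *Cldn4* stayed under 10 CPM and entered none of these counts, and *Cldn10* entered those against the remaining cells only. The members, and the wider list below, were chosen with earlier results of these data known. The counts beside their backgrounds are therefore descriptions and no test of the set.

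A wider list of junction genes was read in the same way, and 42 of its genes with a row were used. Of 27 that passed the 10 CPM minimum, 20 were at least 2-fold higher in type 1 than in type 2 cells and 2 were lower, *Pard3* and *Pard6a*. The median log2 ratio was 3.88. Most of this came from the plaque and polarity proteins, of which 15 of 17 were higher, against 5 of 10 junction membrane proteins. Against the remaining cells 17 of 31 were higher in type 1 and 6 lower, with a median of 1.03. In type 2 against the remaining cells 4 of 30 were higher and 17 lower, with a median of -1.66. The shares of all genes given above hold for these counts too. Many of these levels rested on 1 cell. A single cell gave over 50% of the reads for 11 of the 13 genes of this list with at least 20 CPM in type 2 cells, for 5 of 26 in type 1 and for 8 of 22 in the remaining cells. Without the cell with the most reads of a gene in each class, an alternative chosen after seeing the data, 18 of 23 were higher in type 1 than in type 2 cells and 1 was lower. Against the remaining cells 16 of 25 were then higher in type 1 and 2 lower, and in type 2 against the remaining cells 4 of 21 were higher and 14 lower. The shares of all genes were computed with all cells only. The counts without the top cells therefore have no background to be read against.

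Among the membrane proteins of that list, *Cxadr*, the coxsackievirus and adenovirus receptor, had 338 CPM in type 1, 20.7 CPM in type 2 and 19.6 CPM in the remaining cells. A single cell gave 96.3% of its type 2 reads, and type 2 stood at 0.869 CPM without it. *Marveld2*, the tricellular junction protein tricellulin, had 70.6, 1.70 and 17.9 CPM in the same order, and *Marveld1* 85.6, 33.5 and 21.8 CPM. The tricellular proteins of the angulin family differed: *Lsr* had 107.6, 27.3 and 52.8 CPM, *Ildr1* 23.95, 12.2 and 8.10 CPM, and *Ildr2* 36.1, 0 and 50.9 CPM. The *Ildr2* reads of the remaining cells were all from 1 cell and those of the type 1 cells 99.9% from 1 cell, and for *Ildr1* 1 cell gave 87.2% of the type 1 reads and all of the type 2 reads. *Igsf5*, a junctional immunoglobulin protein, had 78.7, 114.6 and 22.3 CPM. A single cell gave 65.8% of its type 2 reads, and without the top cell of each class type 2 stood at 44.1 CPM and type 1 at 57.4 CPM. *Crb3*, a Crumbs polarity protein, differed by under 2-fold between type 1 and type 2 cells (231 and 206 CPM) and was lower in the remaining cells (53.1 CPM). *Cdh1*, which encodes the E-cadherin used in the sort, had 730.3, 589 and 241 CPM.

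The scaffolds included the cingulins *Cgn* (103.3, 37.7 and 60.6 CPM) and *Cgnl1* (202, 3.397 and 60.3 CPM). For *Cgn* 1 cell gave 99.6% of the type 2 reads, and type 2 stood at 0.200 CPM without it. *Mpp5*, the PALS1 protein that binds PATJ to Crumbs, had 475 CPM in type 1 cells and 11.3 and 7.25 CPM elsewhere. *Magi1* had 182, 0 and 9.35 CPM and *Magi3* 569, 23.3 and 122.8 CPM. *Mpdz*, the close relative of *Inadl*, was read in type 1 cells alone, at 23.95 CPM, and in only 3 of the 45. A single cell gave 64.8% of its reads, and the level was 8.57 CPM without it. The angiomotins, which bind these scaffolds, were *Amotl1* at 52.3, 0.309 and 50.5 CPM and *Amotl2* at 447, 5.40 and 74.6 CPM. Afadin, listed as *Mllt4*, had 209, 4.48 and 102.3 CPM. *Arhgef2*, a guanine nucleotide exchange factor held at junctions, had 230.1, 15.6 and 32.1 CPM.

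Of the Par complex, *Pard3* had 29.3, 113.3 and 59.8 CPM, and 1 cell gave 70.5%, 61.2% and 80.3% of these reads. *Pard6a* had 0.0432, 22.8 and 0.222 CPM, and all of its type 2 reads came from 1 cell. *Pard6b* was highest in type 1 cells (151, 17.8 and 22.5 CPM). The kinases of the complex, *Prkci* (113.4, 22.2 and 98.4 CPM) and *Prkcz* (90.5, 4.94 and 58.4 CPM), were lowest in type 2 cells. So were *Ybx3*, the ZO-1-associated factor ZONAB (149, 46.01 and 104.2 CPM), and *Rab13*, a GTPase of junction traffic (26.6, 0.772 and 26.2 CPM). Of 7 other claudins with a row, *Cldn8* had 39.9 CPM in the remaining cells, present in 8 of 36, and 3 reads in type 1. *Cldn15* had 26.8 CPM in the remaining cells, all from 1 fibroblast-like cell. *Cldn5*, the claudin of endothelium, had no read in any class.

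**Figure D5:**
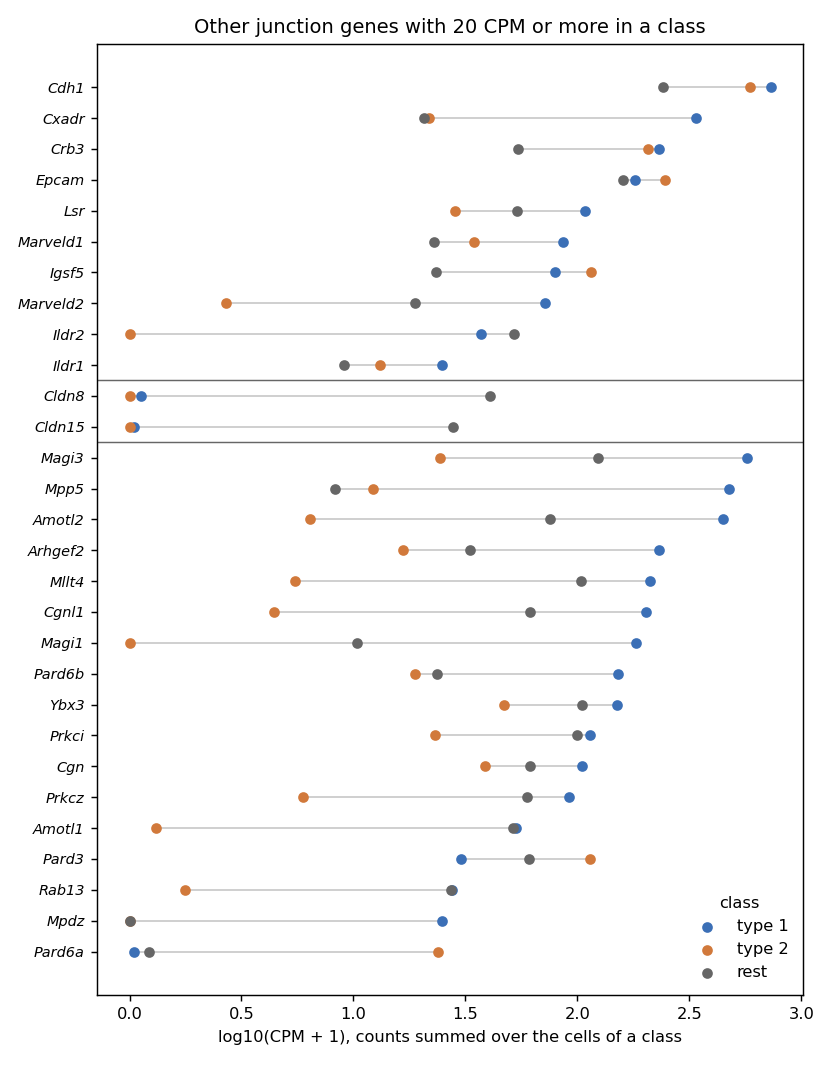
Level of the junction genes of the wider list with at least 20 CPM in some class, in CPM of summed reads on a log axis, with a dot each for type 1, type 2 and the remaining cells. The type 1 dot lies to the right for *Mpp5*, *Cxadr*, *Magi3* and *Amotl2*, and the type 2 dot for *Pard3* and *Pard6a*.

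Low counts of the claudins were found in cells outside their classes. *Cldn18* had reads under 20 CPM in 18 remaining cells, at most 12 reads in a cell. They held a median of 0.0407% of the *Cldn18* reads of their chip column. All 18 shared that column with a cell at 20 CPM or more. Every column with a remaining cell also held a type 1 cell, so this sharing was fixed by the layout and shows nothing. *Cldn3* had reads under 20 CPM in 18 type 1 cells, at most 4 in a cell. Of these, 15 were in a column with a cell at 20 CPM or more of *Cldn3*. Cells without a read were not compared, so this count is not read further. Genes that type 1 cells should lack were found there too, and at more than low counts: *Scgb1a1* had a read in 43 and *Sftpc* in 45 of 45 type 1 cells, at 588 and 253 CPM of summed reads, both over the 20 CPM used to call a gene present. The part of RNA from other cells in these counts was not tested. Shares of cells with a read are therefore not used as shares of expressing cells. With every cell thinned to 90000 reads, *Cldn18* had a read in 45 of 45 type 1, 11 of 11 type 2 and 14 of 36 remaining cells, the last being 27 without thinning.

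The chip was read as 2 sets of columns, 1 to 10 and 11 to 20, to see how far the levels held within parts of it. *Cldn18* in type 1 cells was 2674 and 2605 CPM (26 and 19 cells). In type 2 cells it was 972 and 409 CPM (5 and 6 cells) and *Cldn3* 507 and 150 CPM. *Cldn7* in type 1 cells was 142 and 62.1 CPM, and *Tjp1* in type 2 cells 158 and 31.6 CPM. The type 1 values of *Cldn18*, *F11r* (592 and 625 CPM) and *Tjp1* (285 and 332 CPM) moved little. Those of the 11 type 2 cells moved by over 1.5 times for *Cldn18*, *Cldn3*, *Cldn7*, *Tjp1* and *Inadl*, and by less for *F11r* (187 and 173 CPM).

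Across the 92 cells, the genes whose levels ranked most like those of *Cldn18* were *Emp2* (Spearman correlation 0.81), *Ager* (0.78), *Sparc* (0.74), *Rtkn2* (0.73) and *Clic5* (0.73), out of 2592 genes with reads in at least 50% of the cells of a class. Within the 45 type 1 cells the same 5 had correlations of 0.07, 0.19, 0.18, 0.01 and 0.01. *F11r* (0.44), *Ocln* (0.39), *Tjp1* (0.39) and *Inadl* (0.24) were less like it across all cells, and *Cldn7* (-0.08) and *Cldn3* (-0.25) had the opposite sign. Within the type 1 cells the values were -0.03 for *F11r*, -0.004 for *Ocln*, -0.30 for *Tjp1* and -0.11 for *Inadl*. They were -0.18 for *Cldn7* and 0.09 for *Cldn3*. The points share the class structure, the sort and differences in depth. *Cldn4*, with reads in 5 cells, was most like *Sf3b6* (0.41), *Adrbk2* (0.40), *Cyb561* (0.38), *Ier5* (0.38) and *Cxcl17* (0.35), from counts too sparse to read further.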

How the data were processed

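Single cells were captured on a C1 HT chip, sites were checked by microscopy by the authors, and only sites with 1 cell were analysed. The authors trimmed reads with Trim Galore, checked them with FastQC, aligned them to GRCm38 with HISAT2 and deposited whole-read counts per gene from featureCounts. Versions, annotation and strand setting are not given in the sources used here. The file holds 17136 genes, with 91402 to 2170760 reads in a cell (median 419970). From these counts, cells with more than 90000 reads, more than 500 genes and a mitochondrial share under 0.15 were kept (49 were left out by the last), and no doublet caller was run. Counts were summed per class and divided by class totals (numpy 2.4.6, pandas 2.3.3, scipy 1.17.1). Levels carry exact Poisson, ratios exact conditional binomial and shares Clopper-Pearson 95% intervals. As the authors' labels place all cells in 1 group from 1 mouse, cells are not replicates and no test was run. Ratios were computed for all genes, and their direction was checked on simulated data.

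Remaining cells were split by the mean log2(CPM + 10) of marker lists, centred per gene, with a minimum score of 1.5 and a lead of 1, chosen after seeing the data, as was the level of 20 CPM. The gene members and lists were chosen with earlier results of these data known. Named genes were the members, the wider list's genes with at least 20 CPM in a class and 2-fold between classes, *Cldn5*, and the 5 genes most like *Cldn18* and *Cldn4*. A gene of the wider list is not reported here and was left out of its counts. Alternatives covered the cell filter, class minima, thinning, length scaling, library size, chip columns and the top cell. Promoter sequences are from RefSeq (GRCm38.p6) and exonic lengths from GENCODE vM21. Marker lists for fibroblasts summed to 4403, 272 and 575 CPM in type 1, type 2 and remaining cells, with *Sparc* the only gene over 100 CPM in type 1. The immune list had 2 of 6 genes in the file. The ciliated and club lists were highest in the remaining cells for 12 of 12 genes each, and the basal list for 9 of 9.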

Additional observations from a re-analysis of the deposited data

Results flagged for a closer look

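The cells left out for a mitochondrial share of 0.15 or more entered none of the main class levels above, only the depth range of the file and the alternative with all deposited cells, and the claudins were read in them as well. Classed by the same minima, 19 of them were type 1, 16 type 2 and 14 neither, with median mitochondrial shares of 19.5%, 26.6% and 22.5%. *Cldn18* had 2223 CPM in the removed type 1 cells, 1083 CPM in the removed type 2 cells and 63.5 CPM in the removed others. *Cldn3* had 1.13, 116.9 and 109.9 CPM in the same order. *Cldn4* had no read in any of the 49 cells. These values stood out because they lie outside the cells analysed. The order of the classes for *Cldn18* was that of the kept cells, and the removed type 2 cells had more *Cldn18* and less *Cldn3* than the kept ones. For *Cldn7* (300.4 CPM in the removed type 1 cells and 46.4 CPM in the removed others) and *Ocln* (67.8 and 82.3 CPM) the order of these classes was the opposite of that in the kept cells. These orders rested on few cells. *Cldn7* reached 20 CPM in 3 of 19 and 3 of 14 of these cells, and *Ocln* in 2 of 19 and 2 of 14.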

How the results depend on the processing

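Of the members' 26 log2 ratios, 23 were at least 1 in size, and of their 329 values under the alternatives 327 had the same direction and 312 stayed at least 1 in size. The direction turned for *Inadl*: type 1 over type 2 was -0.10 in chip columns 1 to 10, and type 2 over the remaining cells was -7.05 in columns 11 to 20, where 1 read was left in type 2 cells. *Cldn7* in type 1 over type 2 dropped to 0.67 with an *Sftpc* minimum of 4000 CPM, and *Cldn10* in type 2 over the remaining cells moved to -0.64, since that minimum moves 2 club-like cells and 1 unassigned cell into type 2. With it, members higher in type 2 than in type 1 numbered 2 rather than 1. In columns 11 to 20, 1 rather than 3 members was higher in type 2 than in the remaining cells and 5 rather than 3 were lower.

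The *Cldn18* share of claudin reads per kilobase in type 1 cells (91.3%) was 92.3% with a mitochondrial maximum of 0.10, 87.4% in all deposited cells, 92.5% as a mean over cells, 91.96% after thinning, 96.03% by reads not divided by length, 90.8% without the top cell, and 88.96% and 94.7% in columns 1 to 10 and 11 to 20. In type 2 cells (36.6%) it was 30.8%, 48.7% in all deposited cells, 29.3% with the *Sftpc* minimum of 4000 CPM, 66.6% by reads alone, 33.5% without the top cell, and 34.3% and 41.8% in the column sets. In the remaining cells (4.75%) it was 5.69%, 5.01% in all deposited cells, 7.12% with an *Ager* minimum of 10000 CPM, 5.08% with the *Sftpc* minimum of 4000 CPM, 5.24% as a mean over cells, 11.2% by reads alone, 3.94% without the top cell, 2.69% and 7.42% in the column sets, and 4.33% without fibroblast-like and unassigned cells, a choice made after seeing the data. The order type 1, type 2, remaining cells held in all of these. No paired analysis was possible because all cells are of 1 group. A single mouse and 11 type 2 cells limit every value.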
